A study of Homo sapiens with 16 samples.

Results

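The genes described here are 35 genes of glycolysis and of the cellular response to low oxygen, taken by symbol from the 58051 gene identifiers measured in P493-6 cells. Of these, 23 are glycolytic members, which are the enzymes of glycolysis, the paired kinase-phosphatases PFKFB3 and PFKFB4 that set phosphofructokinase activity, and the carriers of glucose and lactate. The other 12 are hypoxia-linked members outside glycolysis, most of them known targets or regulators of the hypoxia-inducible factor HIF. All 35 were found and all 35 passed the filter on low values, which kept 13765 genes whose mean over the 16 libraries was 10 normalized counts or more. ENO2 passed it only through the groups called medium MYC below.

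P493-6 is a human B cell line, immortalised by a viral factor (EBNA2) that works only with oestrogen, whose MYC transgene is shut off by doxycycline. The high MYC groups were kept in DMEM with 10% FBS and no additive, and the medium MYC groups had 0.1 µg/mL doxycycline and 1 µM β-estradiol from 24 h before treatment. For the next 24 h cells of each level were given DMSO or IMP1088 at 100 nM, which blocks N-myristoyltransferases, the enzymes that attach a lipid to the start of many proteins. This gave 4 groups of 4 libraries, called here high MYC controls, high MYC with inhibitor, medium MYC controls and medium MYC with inhibitor. All groups carry the same transgene and the same EBNA2 construct, and an effect of MYC level cannot be told apart from one of doxycycline or of estradiol. The labels name no change in oxygen supply. Nothing in the labels says that replicates were separate cultures, so p-values measure only the spread between these libraries, which may be technical.

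Glycolysis turns glucose into pyruvate in the cytosol and lactate dehydrogenase turns pyruvate into lactate, which leaves the cell through monocarboxylate carriers. HIF is a pair of proteins whose oxygen-regulated subunit, encoded by HIF1A, is marked for destruction by prolyl hydroxylases such as EGLN1 and EGLN3 when oxygen is present. When HIF accumulates it raises transcription of most glycolytic genes, of the pyruvate dehydrogenase kinases that hold pyruvate back from mitochondria, and of mitophagy receptors such as BNIP3. MYC is known to bind many of the same glycolytic genes, and proliferating B cells are known for strong glucose uptake.

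Library depth ran from 8755296 to 13858534 reads. Replicates correlated across genes at r from 0.985 to 0.990, and every replicate pair differed by more than sampling noise (chi-square divided by its degrees of freedom, 1.68 to 9.95). The first principal component, with 82.3% of the variance, separated the MYC levels, and the second, with 4.14%, separated inhibitor from control. MYC, which tests the labels of MYC level, stood at 31649 ± 2130 (SD, n = 4) normalized counts in high MYC controls and 958.6 ± 48.7 in medium MYC controls, and at 47542 ± 505 and 1382 ± 51.2 with the inhibitor. Mean MYC RNA was thus higher with the inhibitor at each level, and its part in the inhibitor comparisons was not tested. All 10 B cell markers had a mean of at least 10, with a summed level of 26695 to 27056 in high MYC controls, 22010 to 22956 with the inhibitor, 43352 to 44110 in medium MYC controls and 38531 to 39769 with the inhibitor. Of 6 T cell markers 3 reached that mean, and their sum ran from 90.5 to 108, from 57.2 to 78.8, from 185 to 243 and from 156 to 190 in the same order of groups. Of 6 myeloid markers 2 did, with sums of 118 to 136, 108 to 119, 263 to 291 and 248 to 276. HBB of the erythroid list, KRT18 of the epithelial list and DCN of the fibroblast list were listed at 0 in all libraries, and none of the 4 erythroid, 2 of the 4 epithelial and 1 of the 4 fibroblast markers reached a mean of 10. The summed epithelial level ran from 56.5 to 70.8, from 65.6 to 86.3, from 60.5 to 78.8 and from 84.6 to 112 in that order, and the fibroblast sum from 5.59 to 10.5, from 4.44 to 19.4, from 156 to 178 and from 193 to 221. The part of these marker differences in the results below was not tested.

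With the inhibitor most glycolytic members were lower at both MYC levels, and at medium MYC most of the other hypoxia-linked members were lower as well. At high MYC, 17 of the 23 glycolytic members fell and 1, the lactate carrier SLC16A1, rose, where 16.3% of all tested genes were called lower and 10.5% higher. At medium MYC, 19 fell and SLC16A1 again rose, where the shares of all tested genes were 14.6% lower and 11.7% higher. The median log2 change of the 23 was -0.20 at high MYC and -0.44 at medium MYC, against -0.02 and -0.01 over all tested genes. In 16 of the 23 at high MYC the 4 inhibitor libraries all lay below the 4 controls, and in 19 at medium MYC, where 15.8% and 15.4% of all tested genes did so. Of the 12 other hypoxia-linked members, 4 fell at high MYC and 10 at medium MYC, and none rose at either level, with median log2 changes of -0.15 and -0.43. In bulk RNA, a lower value in every cell and loss of the transcript from some cells cannot be told apart.

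The same direction was called at both levels for 17 glycolytic members that fell and 1 that rose, and for 4 other members that fell (BNIP3L, PDK1, P4HA1 and BNIP3), where 8.38% of all tested genes were called lower at both levels and 4.76% higher. Called at neither level were PFKM, ENO2 and LDHB among the glycolytic members and ANKRD37 and HILPDA among the others. A fall of at least 0.5 on the log2 scale was reached by 3 glycolytic members at high MYC and 8 at medium MYC, where 3.53% and 2.78% of all tested genes reached it. Under quantile normalization the split of all genes at high MYC moved from 1442 higher and 2247 lower to 1727 and 1770, while 16 of the 23 glycolytic members stayed lower. The count of 4 other members at high MYC was not stable. It was 1 with equal library totals, with quantile normalization, with no filter and with DESeq2, and 2 with a replicate block. Without high MYC control replicate 2 or 3, or without high MYC inhibitor replicate 4, it was 1, and without inhibitor replicate 1, 2 or 3 it was 2.

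**Figure D1:**
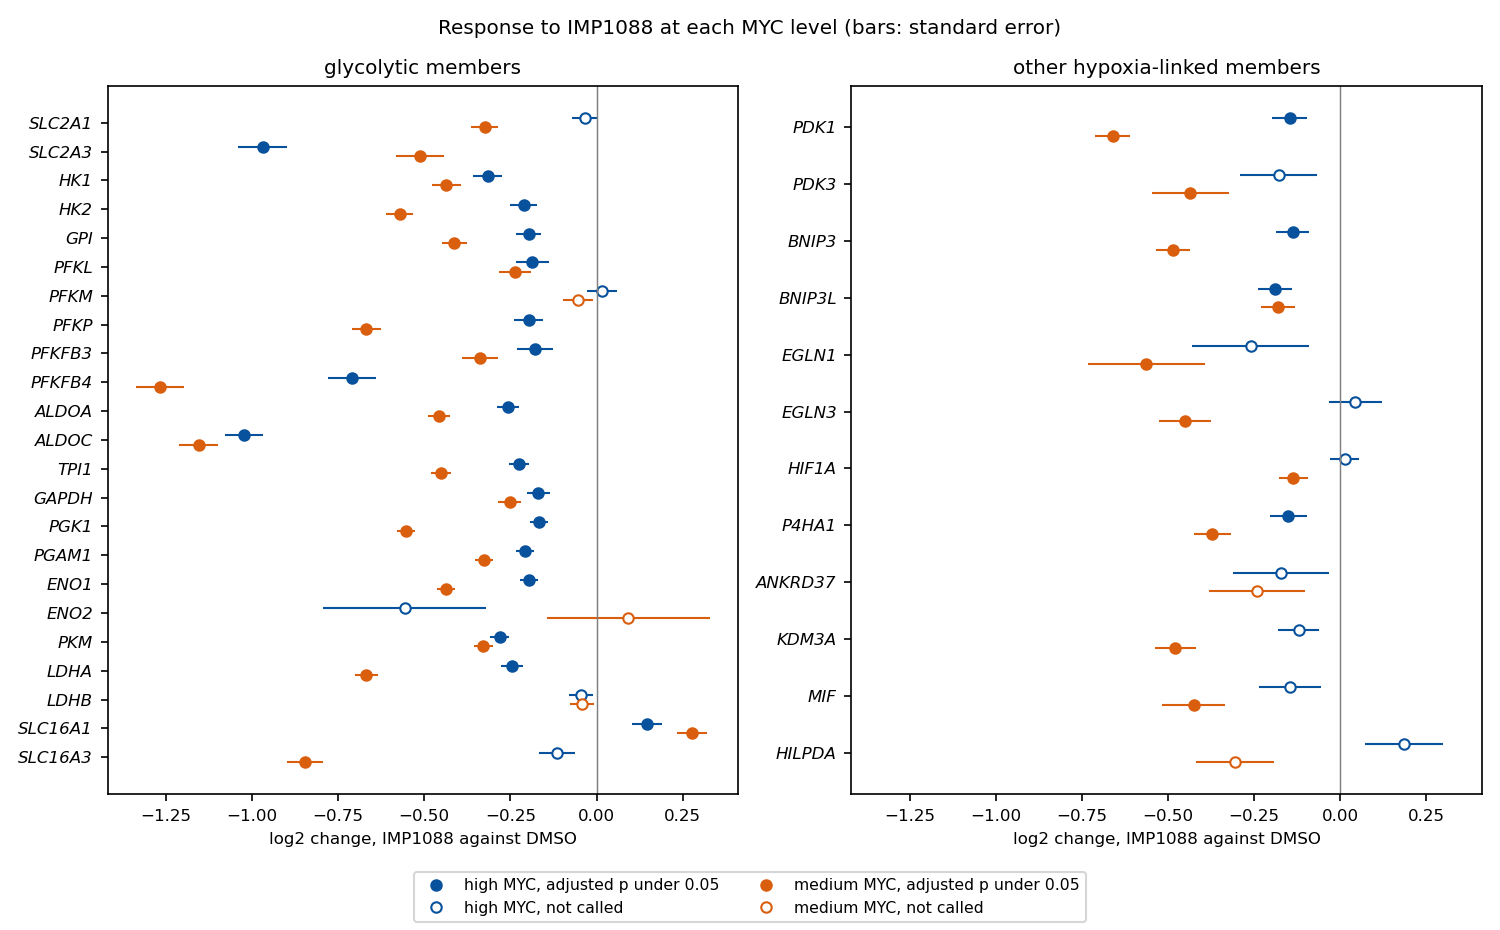
Log2 change of each of the 35 members, inhibitor against control, at high and at medium MYC, with bars for the standard error. Filled points passed an adjusted p of 0.05, and among glycolytic members only SLC16A1 has filled points to the right of 0.

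Promoter sequences of 4 members are shown because these members span the responses, a choice made after their values were seen. ALDOC and PFKFB4 had the deepest falls at medium MYC, LDHA fell at both levels and LDHB was called at neither. Each sequence holds the 250 bases before the gene's first listed RefSeq start on GRCh38.p14, 5′ to 3′ on the gene's strand. Capitals mark ACGTG or GCGTG on either strand, the core letters to which HIF binds. The ALDOC window is chr17:28576896-28577145 on the minus strand, the PFKFB4 window is chr3:48556804-48557053 on the minus strand, the LDHA window is chr11:18394313-18394562 on the plus strand and the LDHB window is chr12:21657843-21658092 on the minus strand.
ALDOC: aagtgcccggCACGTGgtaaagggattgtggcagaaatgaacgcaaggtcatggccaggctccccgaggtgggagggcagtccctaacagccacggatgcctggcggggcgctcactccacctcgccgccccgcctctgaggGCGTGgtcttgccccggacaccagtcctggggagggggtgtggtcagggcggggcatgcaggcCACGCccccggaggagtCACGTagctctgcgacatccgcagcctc
PFKFB4: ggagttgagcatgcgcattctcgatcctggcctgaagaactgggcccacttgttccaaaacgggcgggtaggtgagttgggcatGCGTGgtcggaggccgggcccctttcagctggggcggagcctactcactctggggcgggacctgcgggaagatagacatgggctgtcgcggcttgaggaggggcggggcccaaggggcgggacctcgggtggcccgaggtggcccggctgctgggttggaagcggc
LDHA: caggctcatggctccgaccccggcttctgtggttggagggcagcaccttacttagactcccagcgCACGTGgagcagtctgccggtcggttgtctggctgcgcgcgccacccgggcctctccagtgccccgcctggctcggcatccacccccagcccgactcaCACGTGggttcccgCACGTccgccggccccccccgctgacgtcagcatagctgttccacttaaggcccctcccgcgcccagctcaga
LDHB: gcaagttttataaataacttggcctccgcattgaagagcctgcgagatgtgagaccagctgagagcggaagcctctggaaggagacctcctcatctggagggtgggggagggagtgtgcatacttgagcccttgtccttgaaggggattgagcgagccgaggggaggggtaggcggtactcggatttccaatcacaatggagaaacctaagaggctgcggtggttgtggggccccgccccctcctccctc
The LDHA window shown held 3 separate ACGTG stretches, 2 of them within CACGTG, the palindrome bound by MYC and related factors, which contains ACGTG on both strands. Another LDHA window, not shown, held 1 GCGTG and no ACGTG. In the ALDOC window ACGTG occurred in 2 separate stretches, 1 of them within CACGTG, and GCGTG occurred 2 times. PFKFB4 had 1 GCGTG, and the LDHB window had none of the 3 motifs. The windows of PKM and PGAM1, which fell at both levels, had none of the 3 motifs either. ANKRD37 and ENO2, called at neither level, had ACGTG in 2 and 1 separate stretches. A link between motifs and responses was not tested. RefSeq windows were matched for 31 of the 35 members, with 59 windows in all, and none was matched for HILPDA, SLC16A1, SLC2A3 and BNIP3L. For 50 of the 59 windows the bases just after the start were found in an annotated transcript of the gene. ACGTG on either strand was in 37.3% of the 59 member windows, in 22.6% of the 14236 windows of tested genes and in 18.5% of all 35116 windows. GCGTG was in 32.2%, 43.5% and 32.2%, and CACGTG in 13.6%, 8.49% and 6.34%, in the same order. Some members have many windows, with 7 each for HK1 and PFKM. Counted by gene with at least 1 such window, ACGTG was in 19 of 31 members and 2883 of 9888 tested genes. GCGTG was in 16 and 5244 of these, and CACGTG in 8 and 1139. Many members were picked as HIF targets, so no excess of HIF letters was tested. These counts describe letters only.

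Glucose enters through facilitative carriers, of which SLC2A1 is the widespread form and SLC2A3 a high-affinity form. SLC2A3 stood at 122, 126, 121 and 121 normalized counts in high MYC controls and at 59.1, 67.7, 58.5 and 63.4 with the inhibitor. In medium MYC controls it stood at 369, 362, 382 and 380.0, and with the inhibitor at 267, 240.4, 263 and 277. The inhibitor libraries were below their controls at both levels without overlap, and every medium MYC library was above every high MYC library. SLC2A3 fell 1.96-fold at high MYC (log2 -0.97, SE 0.07, limma adjusted p = 1.3e-09) and 1.43-fold at medium MYC (log2 -0.51, SE 0.07, limma adjusted p = 9.62e-06). For SLC2A1 the high MYC controls held 871, 824, 796 and 817 and the inhibitor libraries 812, 789.7, 823 and 806, with overlap between them. At medium MYC the controls held 978, 957, 1023 and 929 and the inhibitor libraries 779, 748, 795 and 780.4, all below the controls. SLC2A1 did not pass the test at high MYC (log2 -0.03, SE 0.04, limma adjusted p = 0.576) and fell at medium MYC (log2 -0.32, SE 0.04, limma adjusted p = 1.37e-06).

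Hexokinase traps glucose in the cell by phosphorylating it, and HK2 is the isoform typical of tumour and activated cells. HK2 stood at 2217, 2234, 2219.5 and 2306 in high MYC controls and 1948, 1940.0, 1939.9 and 1927 with the inhibitor, and at 1137, 1175, 1184 and 1230.1 in controls and 832, 725, 839 and 788 with the inhibitor at medium MYC. All 4 groups were separate, with high MYC controls at the top and medium MYC with inhibitor at the bottom. Its fall was 1.16-fold at high MYC (log2 -0.21, SE 0.04, limma adjusted p = 0.000345) and 1.49-fold at medium MYC (log2 -0.57, SE 0.04, limma adjusted p = 3.78e-10). HK1, the isoform found in most tissues, went from 814 ± 41.8 to 653 ± 14.4 at high MYC and from 949 ± 20.7 to 702 ± 33.4 at medium MYC (SD, n = 4). HK1 fell at both levels (log2 -0.32, SE 0.04, limma adjusted p = 7.67e-06 at high MYC, and log2 -0.44, SE 0.04, limma adjusted p = 7.85e-08 at medium MYC).

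**Figure D2:**
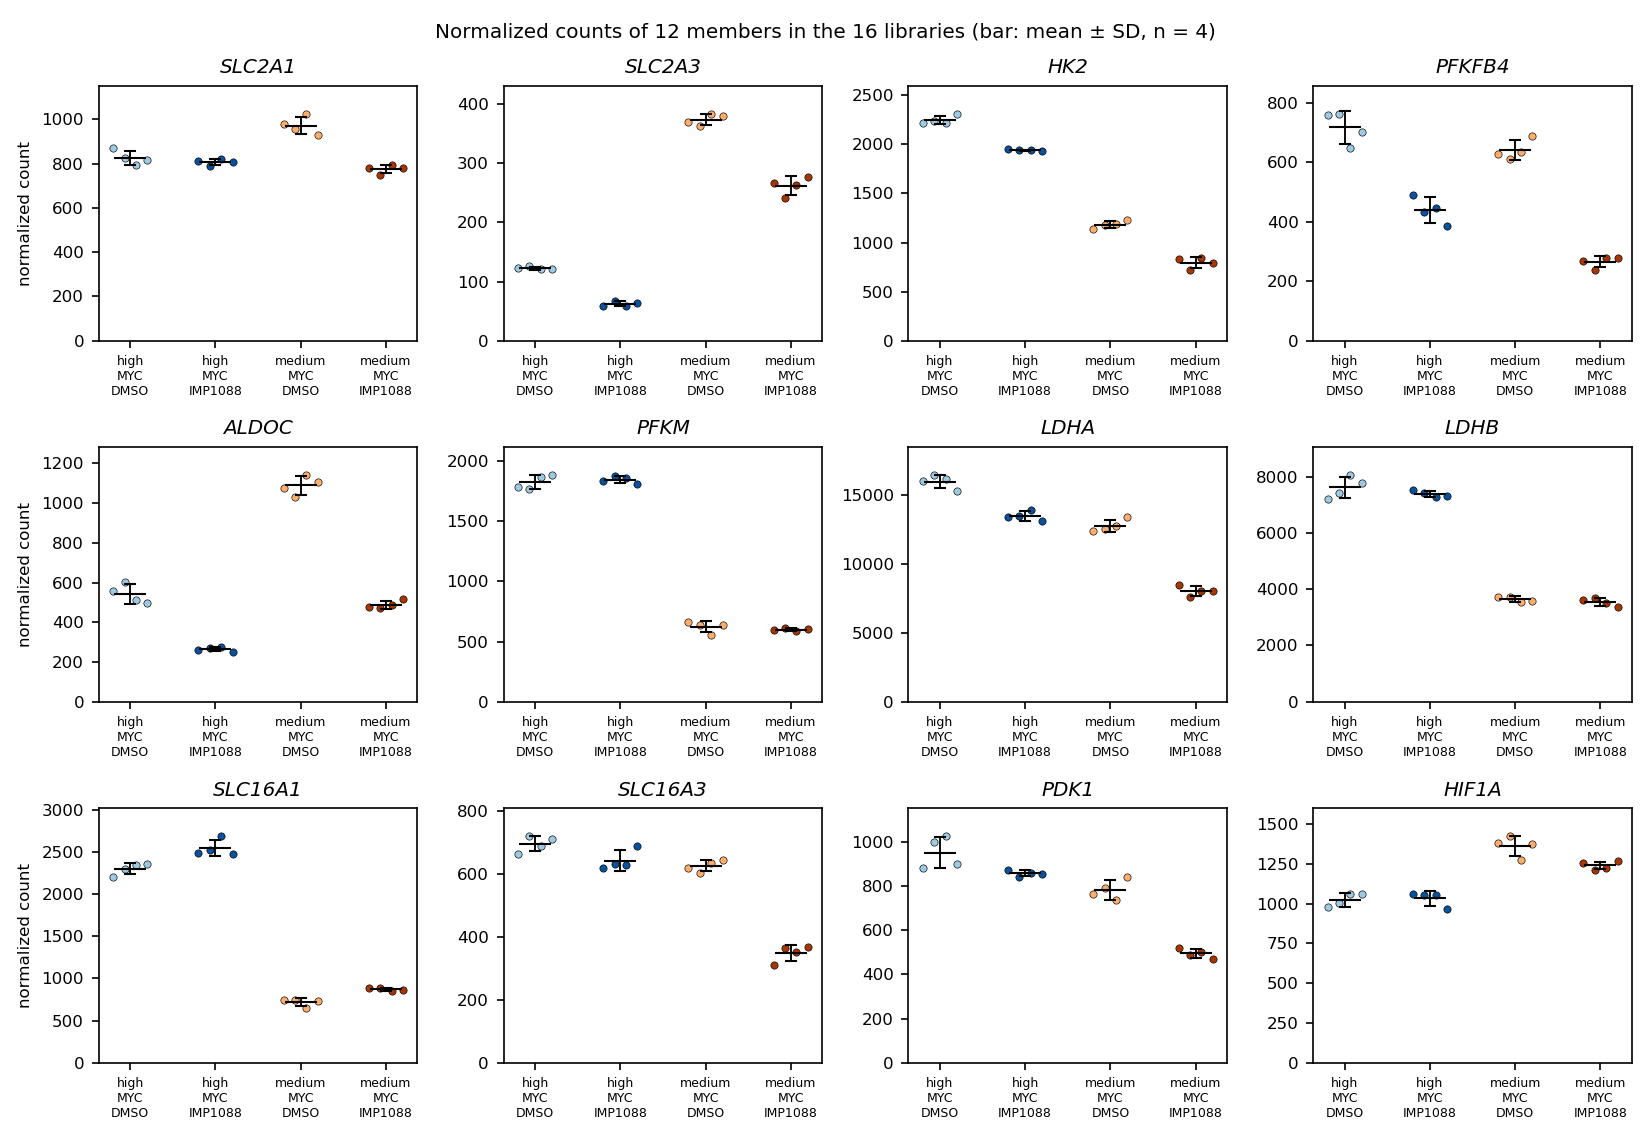
Normalized counts of 12 members in each of the 16 libraries, by group, with each group's mean and SD (n = 4) as a bar and every axis starting at 0. ALDOC and PFKFB4 separate inhibitor from control at both MYC levels, while the PFKM and LDHB groups overlap within each level.

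Glucose phosphate isomerase (GPI) makes fructose phosphate, which phosphofructokinase then commits to glycolysis. GPI went from 6410.4 ± 259 to 5591 ± 130.2 at high MYC and from 3179.8 ± 180.4 to 2386 ± 48.1 at medium MYC, and fell at both (log2 -0.20, SE 0.04, limma adjusted p = 0.000297, and log2 -0.41, SE 0.04, limma adjusted p = 1.65e-08). The 3 phosphofructokinase genes are named for platelet, liver and muscle forms, and PFKP and PFKL fell while PFKM was not called. PFKP stood at 1783, 1731, 1617 and 1622 and, with the inhibitor, 1421, 1426, 1557 and 1485 at high MYC, and at 1617, 1529, 1687 and 1631 in controls and 1078, 1006, 993 and 987 with the inhibitor at medium MYC. The inhibitor libraries were lower without overlap at both levels, and PFKP fell 1.15-fold (log2 -0.20, SE 0.04, limma adjusted p = 0.00131) and 1.59-fold (log2 -0.67, SE 0.04, limma adjusted p = 9.54e-11). PFKL had log2 changes of -0.19 and -0.24 (SE 0.05 for both, limma adjusted p = 0.00484 and 0.000551). With a correction for the GC content of genes (GC correction) these calls held at smaller log2 changes, -0.10 and -0.13 for PFKL and -0.13 for PFKP at high MYC. PFKM, with controls given first here and below, stood at 1783, 1765, 1869 and 1881 against 1835, 1872, 1861 and 1813 at high MYC and at 658, 641, 558 and 637 against 592, 614, 587 and 607 at medium MYC. These groups overlapped, and PFKM was not called at either level (log2 0.02 and -0.05, limma adjusted p = 0.822 and 0.405). Without medium MYC control replicate 3 its medium MYC change of -0.11 passed, with a limma adjusted p of 0.03. PFKM shares 628 bases of exon with SENP1 on the other strand. Whether counting used strand is not given in the sources used here, so reads of such partners may be included here and in the members named below.

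The kinase-phosphatases PFKFB3 and PFKFB4 make and remove the sugar phosphate that activates phosphofructokinase, and both are known HIF targets. PFKFB4 stood at 759.9, 761, 647 and 702 in high MYC controls and at 490.4, 434, 447 and 386 with the inhibitor. At medium MYC the controls held 628, 611, 635 and 688 and the inhibitor libraries 269, 239, 277 and 278. Neither pair of groups overlapped, and the medium MYC libraries with inhibitor were the lowest of all 16. PFKFB4 (chromosome 3, 48517684 to 48562015, GRCh38) fell 1.63-fold at high MYC (log2 -0.71, SE 0.07, limma adjusted p = 1.12e-07) and 2.41-fold at medium MYC (log2 -1.27, SE 0.07, limma adjusted p = 1.04e-11), the deepest fall of the 35 members at that level. PFKFB3 went from 868 ± 40.6 to 767 ± 45.0 and from 1017 ± 54.5 to 804 ± 49.0, with log2 changes of -0.18 and -0.34 (SE 0.05, limma adjusted p = 0.0144 and 3.79e-05). Its call at high MYC was lost without inhibitor replicate 4 (limma adjusted p = 0.0546), with quantile normalization (0.0522) and with the GC correction and replicate block together (0.0623).

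Aldolase splits the doubly phosphorylated sugar into a pair of three-carbon sugars, and ALDOC is the form typical of brain while ALDOA is the common one. ALDOC stood at 558, 603, 509.9 and 498 in high MYC controls and 262, 273, 275 and 253 with the inhibitor, and at 1079, 1029, 1140.3 and 1109 in controls and 477, 473, 486 and 519 with the inhibitor at medium MYC. Inhibitor and control libraries were far apart at both levels, by 2.03-fold at high MYC (log2 -1.02, SE 0.06, limma adjusted p = 2.17e-11) and 2.23-fold at medium MYC (log2 -1.15, SE 0.06, limma adjusted p = 1.53e-12). At high MYC this was the deepest fall of the 35. ALDOC lies on chromosome 17, 28573115 to 28577264 (GRCh38). ALDOA, at 2068 normalized counts per kb of exon in high MYC controls against 185 for ALDOC, had smaller log2 changes (-0.26 and -0.46, SE 0.03, limma adjusted p = 2.68e-06 and 4.41e-10).

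The enzymes from triose phosphate isomerase to pyruvate kinase were among the most abundant members per kb of exon and all 6 fell at both levels. Exon length counts all annotated exons of a gene, so the order of these per-kb levels depends on the annotation. In high MYC controls GAPDH, which makes the first reducing equivalents of the pathway, had 7287 normalized counts per kb, ENO1 (enolase) 3985, PGAM1 (phosphoglycerate mutase) 2188, TPI1 (triose phosphate isomerase) 1946, PKM (pyruvate kinase) 1665 and PGK1 (phosphoglycerate kinase) 1339. At high MYC their log2 changes were -0.17 for GAPDH, -0.20 for ENO1, -0.21 for PGAM1, -0.23 for TPI1, -0.28 for PKM and -0.17 for PGK1, each with an SE of 0.03. All 6 passed the test with non-overlapping groups, the largest limma adjusted p being 0.00055 for GAPDH. The GAPDH change was -0.09 with the GC correction and the ENO1 change -0.12 with quantile normalization, both still called. At medium MYC the changes ran from -0.25 for GAPDH to -0.55 for PGK1, with TPI1 at -0.45, ENO1 at -0.44 and PGAM1 and PKM at -0.33 and -0.33, and all 6 again passed. PGK1 went from 6388 ± 169 to 4354 ± 38.8 normalized counts at medium MYC (SD, n = 4), and GAPDH from 25225 ± 1187 to 21162 ± 304. GAPDH has 62 pseudogenes in the annotation, whose summed mean was 0.194% of its own.

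ENO2, the neuronal enolase, was close to the detection limit at high MYC. It stood at 3.77, 11.2, 6.62 and 11.2 in high MYC controls and 5.38, 5.55, 4.36 and 4.16 with the inhibitor, and at 97.0, 86.5, 104 and 91.9 in controls and 111, 88.4, 99.2 and 107 with the inhibitor at medium MYC. Every medium MYC library was above every high MYC library, while inhibitor and control overlapped within each level. The inhibitor response was not called at high MYC (log2 -0.56, SE 0.24, limma adjusted p = 0.0882) or at medium MYC (log2 0.09, SE 0.24, limma adjusted p = 0.823). High MYC control replicate 1 held the lowest of the control values, and without it the high MYC change was -0.84 with a limma adjusted p of 0.00321.

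At the end of the pathway LDHA, the subunit that favours making lactate from pyruvate, fell, and LDHB, the subunit of the heart-type enzyme, did not pass the test. LDHA stood at 16030.1, 16409.9, 16131 and 15250.1 in high MYC controls and 13421, 13468, 13876 and 13066 with the inhibitor. At medium MYC the controls held 12377, 12488, 12702 and 13369.6 and the inhibitor libraries 8461, 7604, 8001 and 7996. Inhibitor and control libraries were separate at both levels, with medium MYC with inhibitor lowest of the 4 groups. LDHA (chromosome 11, 18394388 to 18408425, GRCh38) fell 1.19-fold (log2 -0.25, SE 0.03, limma adjusted p = 8e-06) and 1.59-fold (log2 -0.67, SE 0.03, limma adjusted p = 1.78e-12). LDHB stood at 7220.5, 7415, 8048 and 7778 against 7513, 7423, 7278 and 7299 at high MYC and at 3738, 3733, 3543 and 3569.7 against 3626, 3684, 3501 and 3365 at medium MYC. Inhibitor and control overlapped at each level for LDHB (chromosome 12, 21635342 to 21757857), with log2 changes of -0.04 and -0.04 (SE 0.03, limma adjusted p = 0.376 and 0.42).

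Lactate and pyruvate leave the cell through SLC16A1, the common carrier, and SLC16A3, the carrier typical of strongly glycolytic cells. SLC16A1 stood at 2204, 2300.0, 2346 and 2350.4 in high MYC controls and 2487, 2528, 2684 and 2479 with the inhibitor, and at 748, 746, 643 and 734 in controls and 889, 883, 845 and 857 with the inhibitor at medium MYC. It was the one member of the 35 that rose, by 1.11-fold at high MYC (log2 0.15, SE 0.04, limma adjusted p = 0.0159) and 1.21-fold at medium MYC (log2 0.28, SE 0.04, limma adjusted p = 4.53e-05), with no overlap of inhibitor and control. The high MYC call was lost without control replicate 1 (limma adjusted p = 0.0547) or inhibitor replicate 3 (0.0664). SLC16A3 stood at 664, 719, 689 and 709.7 against 618, 632, 627 and 689 at high MYC, where the groups overlapped (log2 -0.12, SE 0.05, limma adjusted p = 0.109). Without inhibitor replicate 4 this change passed (limma adjusted p = 0.0484). At medium MYC it stood at 619, 604, 633 and 644 against 311, 363, 351 and 367, a 1.80-fold fall with wide separation (log2 -0.85, SE 0.05, limma adjusted p = 6.31e-11). The opposite strand holds SLC16A1-AS1 over 175 bases of SLC16A1 exon and CSNK1D over 482 bases of SLC16A3 exon.

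Isoforms did not keep their shares, taken per kb of exon within each enzyme or carrier. Exon length is the union of all annotated exons of a gene, so the size of a share depends on the annotation. The same lengths were used in all 4 groups. Shares are means with SD over 4 libraries, and each of 36 comparisons (9 shares by 4 comparisons of groups) had a two-sided exact permutation test, for which 0.0286 is the smallest p that 4 against 4 libraries allow. In 33 of the 36 the groups did not overlap, and the exact permutation p was 0.0286 (0.0312 after Benjamini-Hochberg adjustment over the 36). Single genes separated too, and 69.2% of all tested genes had no overlap between MYC levels in controls. Inhibitor libraries lay wholly below their controls for 15.8% of tested genes (high MYC) and 15.4% (medium MYC). The 36 are not independent, as PFKM and PFKP share a denominator and groups recur. Shares of other gene pairs were not computed, so the count is not read as particular to isoforms. SLC2A3 made up 10.2% ± 0.364 of SLC2A1 and SLC2A3 in high MYC controls, 5.58% ± 0.451 with the inhibitor, and 22.8% ± 0.741 and 20.6% ± 0.706 at medium MYC. ALDOC made up 8.21% ± 0.454, 4.98% ± 0.176, 17.5% ± 0.385 and 11.6% ± 0.622 of the aldolases in the same order, so its share was lower with the inhibitor and higher at medium MYC. PFKFB4 went from 45.3% ± 1.02 to 36.4% ± 1.37 of the PFKFB3 and PFKFB4 sum at high MYC and from 38.7% ± 1.63 to 24.9% ± 1.78 at medium MYC.

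LDHB made up 49.8% ± 1.63 of the lactate dehydrogenases per kb in high MYC controls and 53.3% ± 0.758 with the inhibitor, and 37.4% ± 1.37 and 47.9% ± 1.57 at medium MYC. These sizes rest on exon lengths of 2983 bases for LDHB and 6210 for LDHA. Before division by length, LDHB averaged 7615 and LDHA 15955 normalized counts in high MYC controls. The LDHB share was thus higher with the inhibitor at both levels, beside a lower LDHA level and an LDHB level that was not called. SLC16A3 took 15.1% ± 0.332 and 13.0% ± 0.822 of the lactate carriers at high MYC, and 34.0% ± 1.98 and 19.1% ± 1.37 at medium MYC. Among phosphofructokinases PFKM took 33.3% ± 1.85, 36.6% ± 0.847, 14.0% ± 1.37 and 18.0% ± 0.477 in the 4 groups, and PFKP 46.6% ± 1.12, 44.2% ± 1.01, 54.6% ± 0.569 and 46.2% ± 1.36. HK2 took 74.1% ± 1.11, 75.5% ± 0.371, 56.4% ± 0.367 and 54.0% ± 1.16 of the hexokinases. The 3 comparisons above the smallest p were HK2 for the inhibitor at high MYC and PFKP for MYC level with the inhibitor (exact permutation p = 0.0571, adjusted 0.0588, for both) and ENO2 for the inhibitor at high MYC (0.286). ENO2 stayed under 1% of the enolases in every group mean, from 0.033% ± 0.005 to 0.991% ± 0.084.

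**Figure D3:**
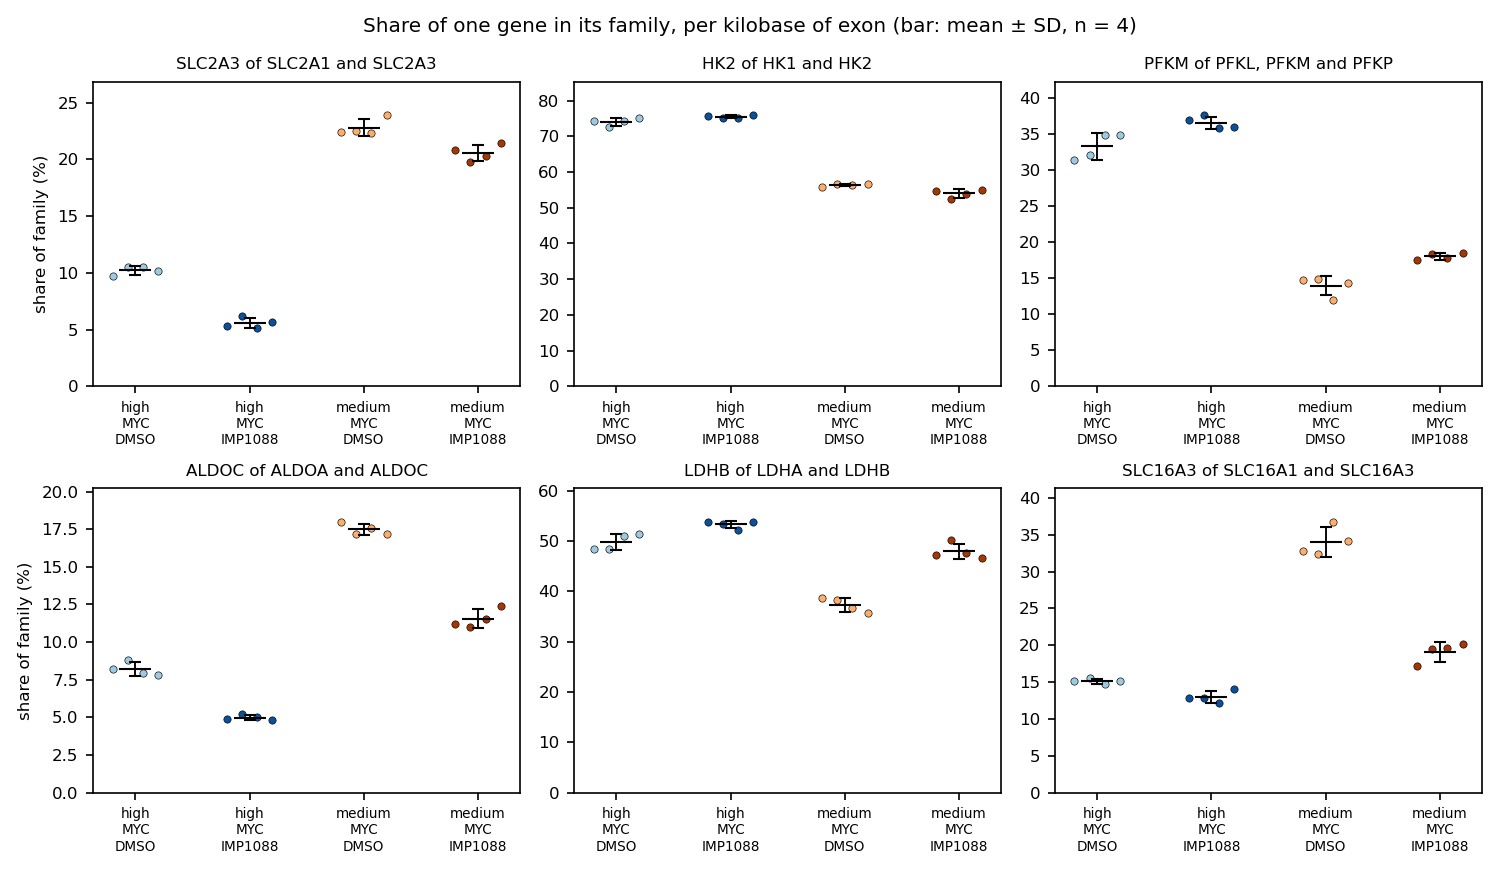
Share of one isoform within its enzyme or carrier, in percent of normalized counts per kb of exon, for each of the 16 libraries, with the group mean as a bar. The LDHB share is higher with the inhibitor at both MYC levels, and the SLC2A3 share is higher in every medium MYC library than in any high MYC library.

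Among the other hypoxia-linked members, HIF1A encodes the regulated subunit itself. It stood at 976, 1002, 1061 and 1064 against 1061, 1056, 1057 and 965 at high MYC, with overlap and no call (log2 0.01, SE 0.04, limma adjusted p = 0.864). At medium MYC it stood at 1382, 1424, 1275 and 1376 against 1257, 1215, 1224 and 1265, a 1.10-fold fall without overlap (log2 -0.14, SE 0.04, limma adjusted p = 0.0177). That call was lost without control replicate 2 (limma adjusted p = 0.0679), without inhibitor replicate 2 (0.0514), with equal library totals (0.0975) and with quantile normalization (0.0605), while the GC correction gave a log2 change of -0.21 that was called. HIF activity is set mainly by protein stability, which RNA counts do not measure. The hydroxylase EGLN3, itself induced by HIF, stood at 602, 555, 568 and 592 against 596, 611, 584 and 597 at high MYC and at 132, 145, 144 and 126 against 100.2, 107, 82.5 and 111 at medium MYC. EGLN3 was not called at high MYC (log2 0.04, SE 0.08, limma adjusted p = 0.728) and fell at medium MYC without overlap (log2 -0.45, SE 0.08, limma adjusted p = 0.000112). EGLN1, the main hydroxylase, had low levels of 38.9 ± 1.84 and 32.7 ± 6.04 at high MYC and 71.4 ± 16.8 and 47.2 ± 4.71 at medium MYC. Its medium MYC fall (log2 -0.56, SE 0.17, limma adjusted p = 0.0168) came with overlapping groups and was lost without control replicate 3 or 4 (limma adjusted p = 0.0658 and 0.0722) or inhibitor replicate 4 (0.0516).

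Pyruvate dehydrogenase kinases switch off the enzyme that feeds pyruvate into mitochondria. PDK1 stood at 881, 1001, 1026 and 903 in high MYC controls and 874, 843, 859.6 and 858 with the inhibitor, and at 766, 790.2, 739 and 844 in controls and 519.6, 489, 502 and 471 with the inhibitor at medium MYC. The high MYC groups lay close without overlap (log2 -0.15, SE 0.05, limma adjusted p = 0.0358), and at medium MYC PDK1 fell 1.58-fold (log2 -0.66, SE 0.05, limma adjusted p = 2.25e-09), the deepest fall among the 12. The high MYC call was lost in 12 of 28 alternatives, among them those without control replicate 2 (0.116) or 3 (0.123) and those without inhibitor replicates 1 to 4 (limma adjusted p from 0.0513 to 0.0842). The others were equal library totals (0.0727), quantile normalization (0.114), no filter (0.068), the replicate block (0.0599), a fit of the compared groups only (0.0549) and DESeq2 (adjusted p = 0.0565). PDK3, a kinase induced in hypoxia, stood at 136, 109, 125 and 89.4 against 103, 98.7, 98.6 and 99.8 at high MYC and 248, 207, 228 and 234 against 188, 166, 142 and 185 at medium MYC. These groups overlapped at high MYC (log2 -0.18, SE 0.11, limma adjusted p = 0.258, and 0.0425 without control replicate 4) and were separate at medium MYC, where PDK3 fell (log2 -0.44, SE 0.11, limma adjusted p = 0.00545).

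BNIP3 and BNIP3L are outer-membrane receptors that mark mitochondria for autophagy. BNIP3 stood at 729, 765, 745 and 752 against 695, 723, 676 and 626 at high MYC and 939, 952, 905 and 1036 against 725, 659, 663 and 689 at medium MYC. It was lower at both levels (log2 -0.14, SE 0.05, limma adjusted p = 0.0384 at high MYC, and log2 -0.49, SE 0.05, limma adjusted p = 1.18e-07 at medium MYC). Its high MYC call was lost without control replicates 2, 3 or 4 (limma adjusted p = 0.0944, 0.0583 and 0.0731) and without inhibitor replicates 3 or 4 (0.0741 and 0.148). It was lost in 13 of 28 alternatives in all, the others being equal library totals (limma adjusted p = 0.0863), quantile normalization (0.148), no filter (0.0729), the replicate block (0.0572), the GC correction without and with that block (0.088 and 0.104), edgeR (0.0583) and DESeq2 (0.0856). The annotation holds 39 BNIP3 pseudogenes whose summed mean was 17.8% of that of BNIP3, so its level is uncertain. BNIP3L stood at 748, 803, 827 and 798 against 684, 723, 715 and 660.1 at high MYC and 1644, 1559.9, 1409 and 1631 against 1428, 1304, 1334 and 1441 at medium MYC. BNIP3L fell at both levels (log2 -0.19 and -0.18, SE 0.05, limma adjusted p = 0.00609 and 0.00907), with overlap at medium MYC, and both calls held under all 28 alternatives. BNIP3L shares 330 bases of exon with PNMA2 on the opposite strand.

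P4HA1 hydroxylates collagen and KDM3A demethylates histones, and both are oxygen-dependent enzymes induced by HIF. P4HA1 stood at 850.3, 823, 829 and 775 against 731, 759, 769 and 692 at high MYC and 722, 717, 761 and 778 against 637, 518, 586 and 565 at medium MYC, without overlap at either level. It was lower at both (log2 -0.15, SE 0.05, limma adjusted p = 0.0425, and log2 -0.37, SE 0.05, limma adjusted p = 1.88e-05). The high MYC call of P4HA1 was lost without control replicate 1, 2 or 3 (limma adjusted p = 0.11, 0.0828 and 0.0788) or inhibitor replicate 1, 2 or 4 (0.0848, 0.0514 and 0.136), and also with equal library totals (0.0654), quantile normalization (0.106), no filter (0.0797) and DESeq2 (0.0528). KDM3A stood at 1018, 1116, 999.9 and 991 against 1005, 1015, 972 and 811 at high MYC, with overlap (log2 -0.12, SE 0.06, limma adjusted p = 0.136). At medium MYC it stood at 1454, 1452, 1454 and 1566 against 1124, 1008, 1037 and 1083 and fell without overlap (log2 -0.48, SE 0.06, limma adjusted p = 2.05e-06).

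MIF, a cytokine made by most cells, stood at 3803, 3313, 2772 and 2867 against 2595, 2699, 3074 and 3102 at high MYC and 1246, 1216, 1641 and 1315 against 924, 1037, 1004 and 1043 at medium MYC. Its groups overlapped at high MYC (log2 -0.15, SE 0.09, limma adjusted p = 0.259) and MIF fell at medium MYC (log2 -0.43, SE 0.09, limma adjusted p = 0.0012). ANKRD37, a small ankyrin protein strongly induced by hypoxia, stood at 55.7, 65.1, 61.8 and 64.8 against 38.7, 63.2, 55.9 and 65.5 and at 122, 100.2, 116 and 108 against 87.4, 107, 86.7 and 95.8, with overlap at both levels and no call (limma adjusted p = 0.405 and 0.223). It overlaps UFSP2 on the opposite strand over 909 bases of exon. HILPDA, a lipid droplet protein, went from 121 ± 14.6 to 138 ± 14.0 and from 130.4 ± 7.78 to 106 ± 15.7. Neither change was called, and the medium MYC one (log2 -0.31, SE 0.11, limma adjusted p = 0.0502) was near the threshold, which it passed when any 1 of 5 libraries was left out (high MYC control replicate 3 or 4, high MYC inhibitor replicate 3, medium MYC control replicate 1 or medium MYC inhibitor replicate 3, with limma adjusted p from 0.0208 to 0.0483), and with quantile normalization (0.0372), a pseudocount of 10 (0.0478), the filter at a mean of 100 (0.0393) or the GC correction (0.0422).

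The study's title asks how the response depends on MYC level. Where the response of a member differed, it was, with 1 exception, more negative at medium MYC. The difference in response, medium minus high MYC on the log2 scale, was called lower for 11 of the 23 glycolytic members and 4 of the 12 others, where 3.31% of all tested genes were called lower. It was called higher for 1 glycolytic member, SLC2A3, where 5.33% of tested genes were. The median difference was -0.16 over the glycolytic members and -0.29 over the others, against 0.02 over all tested genes. The sign was negative in 19 of 23 and 11 of 12. Because the 2 responses use different libraries, they share no control.

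Called differences among glycolytic members spanned carriers, control enzymes and the abundant enzymes. For SLC16A3 the response was -0.12 at high and -0.85 at medium MYC, a difference of -0.73 (SE 0.07, limma adjusted p = 7.27e-07). PFKFB4 differed by -0.56 (SE 0.10, limma adjusted p = 0.000651) and PFKP by -0.47 (SE 0.06, 1.42e-05). LDHA differed by -0.42 (SE 0.05, 2.47e-06), PGK1 by -0.39 (SE 0.04, 2.47e-07) and HK2 by -0.36 (SE 0.06, 0.000147). Smaller called differences were those of SLC2A1 (-0.29), ENO1 (-0.24), TPI1 (-0.23), GPI (-0.22) and ALDOA (-0.20). Against this direction, SLC2A3 fell by more at high MYC, with a difference of 0.46 (SE 0.10, limma adjusted p = 0.00452).

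Among the other hypoxia-linked members PDK1 differed by -0.51 (SE 0.07, limma adjusted p = 4.74e-05), EGLN3 by -0.49 (SE 0.11, 0.00479), KDM3A by -0.36 (SE 0.08, 0.00727) and BNIP3 by -0.35 (SE 0.07, 0.00206). ALDOC, with falls of -1.02 and -1.15, did not pass this test (-0.13, SE 0.08, limma adjusted p = 0.37). BNIP3L gave 0.01 (SE 0.07, 0.959) and HIF1A -0.15 (SE 0.06, 0.134). The HIF1A difference passed without medium MYC control replicate 3 (limma adjusted p = 0.0414) and with the GC correction (0.0361), that of P4HA1 without medium MYC inhibitor replicate 1 (0.0198), and that of ENO2 without high MYC control replicate 1 (0.0315). PGAM1 was just short of the threshold (-0.12, SE 0.04, limma adjusted p = 0.0567) and passed without medium MYC control replicate 2 (0.0436) or 3 (0.0384), with quantile normalization (0.00145), with the filter at a mean of 100 (0.0463), with the GC correction (0.0438) and with DESeq2 (0.0377). The GAPDH difference (-0.08, limma adjusted p = 0.325) passed with quantile normalization, at -0.24 (0.00135). HILPDA (-0.49, SE 0.16, 0.062) passed without high MYC control replicate 4 (limma adjusted p = 0.0435), high MYC inhibitor replicate 3 (0.038) or medium MYC inhibitor replicate 3 (0.0321), and with quantile normalization (0.0428), the filter at a mean of 100 (0.0474) or the GC correction (0.038). With the GC correction 7 of the 12 others were called lower, where calls over all tested genes also grew, from 455 lower of 13765 to 686 of 13694.

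Between the MYC levels the members moved in both directions. The hexokinase, phosphofructokinase, aldolase and enolase steps each held, in controls, an isoform called higher at medium MYC and another called lower. So did PFKFB3 and PFKFB4, where the PFKFB4 call was unstable. Both glucose carriers were higher, and both lactate dehydrogenases and both lactate carriers lower. All tested genes were split nearly evenly, so mixed directions are not read as a result about isoforms. In controls 11 of the 23 glycolytic members were higher at medium MYC and 11 lower, against 38.9% higher and 37.3% lower over all tested genes, which puts the counts near those shares. The 4 medium MYC controls lay wholly above or below the 4 high MYC controls for 21 of the 23 glycolytic members and 10 of the 12 others, against 69.2% of all tested genes. Of the 12 others 7 were higher and 4 lower. With the inhibitor the counts were 9 higher and 12 lower of 23, and 6 higher and 5 lower of 12, where the shares of all tested genes were 39.7% and 37.8%. These comparisons share libraries with the inhibitor comparisons, so their values stand side by side with no test between them.

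The largest called changes of glycolytic members in controls, in each direction, were as follows. SLC2A3 was 3.03-fold higher at medium MYC (log2 1.60, SE 0.07, limma adjusted p = 5.76e-15), ALDOC 2.01-fold (log2 1.01, SE 0.06, limma adjusted p = 4.15e-13), and ENO2 rose from 8.20 ± 3.66 to 94.9 ± 7.52 normalized counts (log2 3.48, SE 0.24, limma adjusted p = 1.22e-11). ENO2 had from 5 to 10 reads in the high MYC controls, so the size of its change is imprecise. Its means in the high MYC groups, 8.20 in controls and 4.86 with the inhibitor, were below the filter of 10. It passed that filter only through the medium MYC groups, where it is high, so its p-value here is not taken as support. Lower at medium MYC were SLC16A1, 3.21-fold (log2 -1.68, SE 0.04, limma adjusted p = 5.31e-19), PFKM, 2.93-fold (log2 -1.55, SE 0.04, limma adjusted p = 1.73e-18), and LDHB, 2.09-fold (log2 -1.06, SE 0.03, limma adjusted p = 2.55e-17). GPI and HK2 were also lower, by 2.02-fold and 1.90-fold (log2 -0.93, SE 0.04, limma adjusted p = 3.13e-15 for HK2). In all of these the 4 medium MYC controls lay wholly above or wholly below the 4 high MYC controls.

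Other enzymes of the pathway had smaller changes than those just named. TPI1, GAPDH, PGAM1 and PKM were higher at medium MYC (log2 0.36, 0.22, 0.22 and 0.38), while ALDOA, PGK1, ENO1 and LDHA were lower (log2 -0.24, -0.21, -0.32 and -0.33), each with an SE of 0.03 and all passing the limma test. Quantile normalization moved several of these, to 0.64 for GAPDH, 0.60 for PKM, -0.10 for ALDOA, -0.11 for PGK1, -0.06 for ENO1 and -0.07 for LDHA, with all 6 calls and their directions kept. PFKP was not called in controls (log2 -0.06, SE 0.04, limma adjusted p = 0.184) but was with the GC correction (log2 -0.12, limma adjusted p = 0.0041), and with the inhibitor it was lower at medium MYC (log2 -0.53, SE 0.04, limma adjusted p = 1.54e-10). PFKFB4 was called lower in controls with overlapping groups (log2 -0.16, SE 0.07, limma adjusted p = 0.0407), a call lost when high MYC control replicate 1, 2 or 4 or medium MYC control replicate 1, 2 or 3 was left out (limma adjusted p from 0.0514 to 0.121), with quantile normalization (0.0642), with no filter (0.0677) and with the replicate block (0.051). For SLC2A1 the change was 0.23 in controls (limma adjusted p = 1.26e-05) and -0.06 with the inhibitor, which was not called (0.174) except with the GC correction (log2 -0.10, limma adjusted p = 0.00521). HK1 was higher at medium MYC with the inhibitor (log2 0.10, SE 0.04, limma adjusted p = 0.0315), a call lost without replicate 1 or 4 of high MYC with inhibitor (limma adjusted p = 0.0598 and 0.0838) or replicate 1 or 3 of medium MYC with inhibitor (0.0665 and 0.126). That call was also lost with no filter (limma adjusted p = 0.0551), with the GC correction (0.0761, and 0.0922 with the replicate block added) and with DESeq2 (adjusted p = 0.0858).

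Of the other hypoxia-linked members, EGLN3 was 4.22-fold lower at medium MYC in controls (log2 -2.08, SE 0.08, limma adjusted p = 2.55e-16) and MIF 2.35-fold lower (log2 -1.23, SE 0.09, limma adjusted p = 5.18e-11). PDK1 was lower too (log2 -0.28, SE 0.05, limma adjusted p = 4.03e-05), whereas its relative PDK3 was 2.01-fold higher (log2 1.01, SE 0.11, limma adjusted p = 4.16e-08). BNIP3L and ANKRD37 were higher by 1.96-fold and 1.79-fold (log2 0.97 and 0.84, limma adjusted p = 7.35e-14 and 1.27e-05), and HIF1A was 1.33-fold higher (log2 0.41, SE 0.04, limma adjusted p = 9.19e-09). HIF1A was thus among the 7 of the 12 called higher at medium MYC in controls, with PDK3, BNIP3, BNIP3L, EGLN1, ANKRD37 and KDM3A. The 4 called lower, opposite to HIF1A, were EGLN3, MIF, PDK1 and P4HA1. BNIP3 was higher in controls (0.36, limma adjusted p = 9.06e-07) and was at 0.01 with the inhibitor, which was not called (0.871). The summed mean of BNIP3 pseudogenes ran the other way, at 184 in high MYC controls and 75.8 in medium MYC controls. BNIP3 itself averaged 748 and 958 there, so the size of its change is uncertain. P4HA1 was called lower in controls with overlapping groups (log2 -0.14, SE 0.05, limma adjusted p = 0.0256), a call lost without high MYC control replicate 1 (limma adjusted p = 0.0695) or 3 (0.0509) or without medium MYC control replicate 1 (0.0669) or 2 (0.0737), and with the GC correction (0.0858). KDM3A was higher with the inhibitor (log2 0.17, SE 0.06, limma adjusted p = 0.0142), a call lost without high MYC inhibitor replicate 4 (limma adjusted p = 0.0868) or medium MYC inhibitor replicate 1 (0.0524). HILPDA was not called in controls (0.11, limma adjusted p = 0.389).

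**Figure D4:**
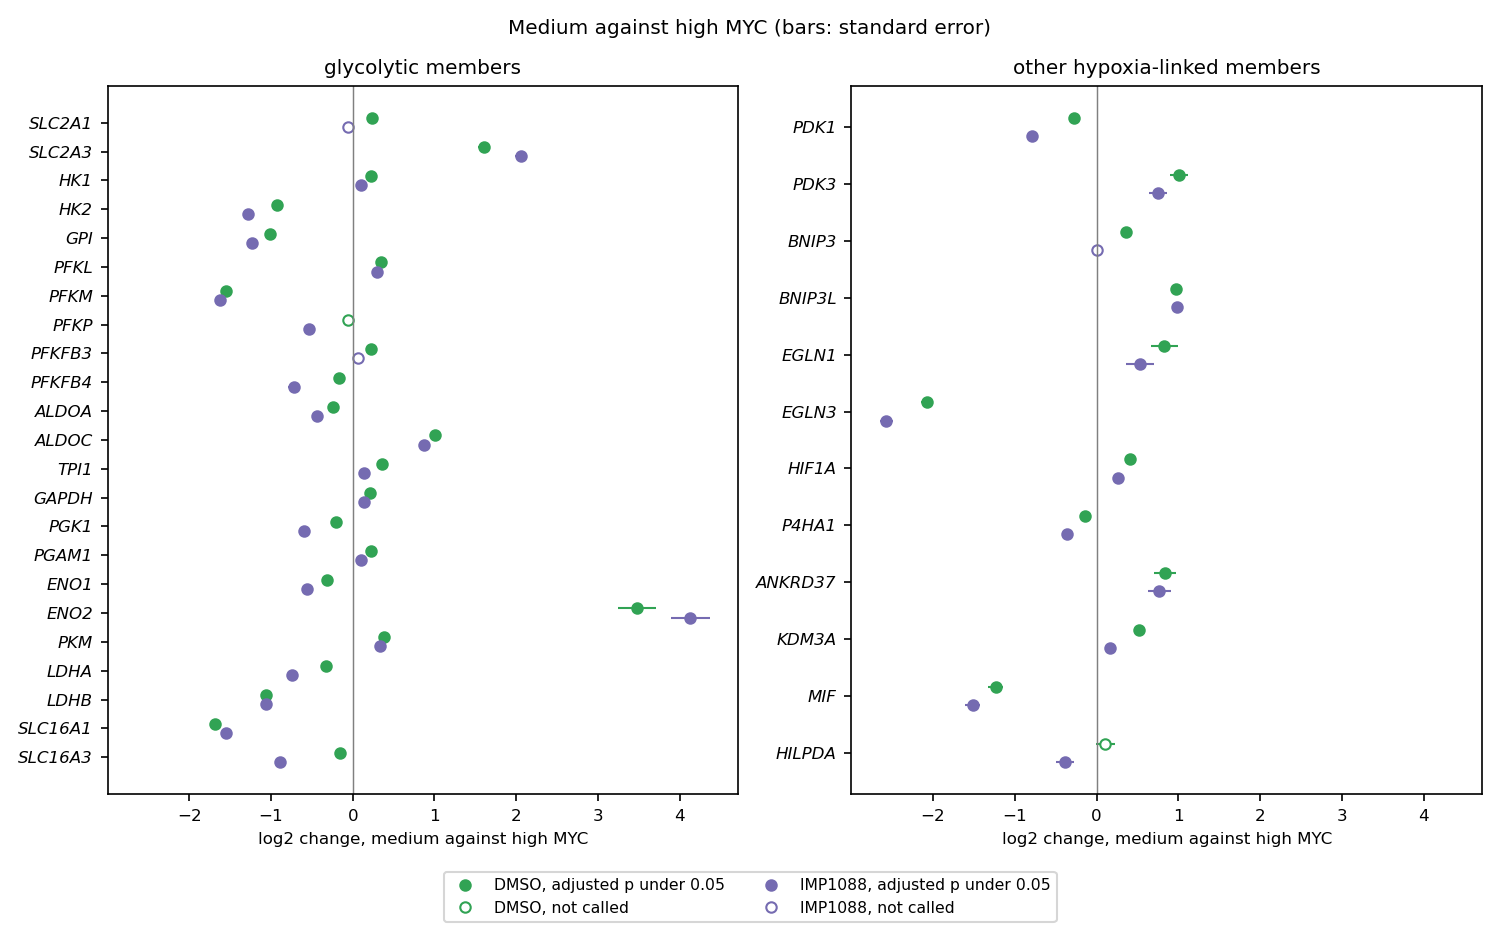
Log2 change of each member, medium against high MYC, in controls and with the inhibitor, with bars for the standard error and filled points for an adjusted p under 0.05. Members lie on both sides of 0, from EGLN3 at the far left to ENO2 at the far right.

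Neighbouring pathways were followed with lists of genes outside the 35. Their counts are read against all tested genes, of which 16.3% were called lower and 10.5% higher with the inhibitor at high MYC, and 14.6% and 11.7% at medium MYC, with median log2 changes of -0.02 and -0.01. Of 15 pentose phosphate and glycogen enzymes tested, 9 fell and 2 rose with the inhibitor at high MYC, and 9 fell and none rose at medium MYC. GYS1, glycogen synthase, fell at both levels (log2 -0.41, SE 0.05, limma adjusted p = 5.79e-06 at high MYC and log2 -0.43, SE 0.05, limma adjusted p = 2.56e-06 at medium MYC). The list's median log2 change was -0.14 at high and -0.23 at medium MYC. Of 13 tested of 29 other glycolysis enzymes and carriers, 2 fell and none rose at high MYC, and 4 fell and 2 rose at medium MYC, so that its share lower at high MYC was near that of all genes. At medium MYC SLC2A5, the fructose carrier, fell (log2 -0.53, SE 0.09, limma adjusted p = 7.7e-05) and PFKFB2 rose (log2 0.36, SE 0.09, limma adjusted p = 0.0061). Of 11 tested of 12 genes for pyruvate entry into mitochondria, 2 fell at high MYC, and 1 rose and 1 fell at medium MYC.

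Of 26 tested of 35 other genes induced by hypoxia, 10 fell and 4 rose at high MYC, and 11 fell and 3 rose at medium MYC, with median log2 changes of -0.11 and -0.03 against -0.02 and -0.01 over all tested genes. DDIT4, an inhibitor of mTOR signalling, fell at high MYC (log2 -0.74, SE 0.04, limma adjusted p = 2.22e-11) and at medium MYC (log2 -0.66, SE 0.04, limma adjusted p = 7.1e-11). PLOD1, which modifies collagen, fell at both levels too (log2 -0.64, SE 0.05, limma adjusted p = 5.08e-09 at medium MYC). CXCR4, a chemokine receptor, rose at both levels (log2 0.74, SE 0.04, limma adjusted p = 2.8e-11 at high MYC and log2 0.21, SE 0.04, limma adjusted p = 0.0005 at medium MYC). Of 13 tested of 16 genes of oxygen sensing and HIF control, 3 fell and none rose at high MYC, and 2 fell and 1 rose at medium MYC, near the shares lower over all tested genes of 16.3% and 14.6%. Those that fell at high MYC include EGLN2, a further prolyl hydroxylase (log2 -0.31, SE 0.05, limma adjusted p = 3.33e-05 at high MYC), and ARNT, the partner subunit of HIF (log2 -0.21, SE 0.06, limma adjusted p = 0.011 at high MYC). Of 4 tested of 5 genes of the glucose-sensing MLX network, 1 fell at each level, TXNIP at high MYC (log2 -0.23, SE 0.04, limma adjusted p = 8.44e-05) and MLX at medium MYC (log2 -0.30, SE 0.05, limma adjusted p = 0.000118).

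Between MYC levels in controls, the oxygen-sensing list had 9 of its 13 tested genes higher at medium MYC and 3 lower, with a median log2 change of 0.41 against 0.02 over all tested genes. The pentose phosphate and glycogen list had 6 higher and 8 lower of 15, with GBE1, the glycogen branching enzyme, higher (log2 2.19, SE 0.06, limma adjusted p = 7.15e-19) and TKT, transketolase, lower (log2 -1.33, SE 0.04, limma adjusted p = 2.95e-18). Pyruvate entry had 4 higher and 6 lower of 11, with the mitochondrial pyruvate carrier gene MPC1 higher (log2 1.43, SE 0.12, limma adjusted p = 3.09e-10) and DLAT, a pyruvate dehydrogenase subunit, lower (log2 -1.17, SE 0.05, limma adjusted p = 6.98e-15). The other hypoxia genes had 12 higher and 11 lower of 26, the other glycolysis genes 5 higher and 6 lower of 13, and the MLX network 1 higher and 3 lower of 4. Over all tested genes 38.9% were higher and 37.3% lower, and the counts of the other hypoxia genes and the other glycolysis genes lie near those shares.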

How the data were processed

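RNA sequencing of 16 P493-6 libraries (4 groups of 4) was used as a single table of 58051 Ensembl identifiers. Its values are a signal, gene counts divided by one size factor per library, as deposited by the authors. The submitters' processing notes name STAR 2.5.2a, RSEM 1.2.31, DESeq2 1.16.1 and GRCh38, and the gene annotation and the use of strand in counting are not given in the sources used here. In all 16 libraries division by the smallest value above 0 gave back whole reads, with 100% of values whole within 1e-06. This gave 8755296 to 13858534 reads per library. The size factors implied by these steps matched median-of-ratios factors computed from the recovered reads. Read depth sets the counting error of low genes such as ENO2.

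Symbols came from a gene name table (56948 identifiers matched), and positions, exon lengths and GC from GENCODE release 29 on GRCh38 (57447 matched). Exon length is the union of all annotated exons of a gene. Promoter windows are those of RefSeq on GRCh38.p14. The test was limma 3.58.1 with a mean trend (R 4.3.3) on log2(value + 1), over 13765 genes with a mean of at least 10, in one fit of 4 group means. Benjamini-Hochberg adjustment covered all tested genes and calls were made at 0.05, two-sided. Fold changes are on the log2(value + 1) scale, which understates the change of low genes. Groups that do not overlap have all 4 libraries of one below all 4 of the other. Simulated counts for high MYC over 13765 genes gave back 70.1% of 97 genes changed by 0.5 on the log2 scale and 92.2% of 103 changed by 1, and called 10 unchanged genes. The test of the difference in response gave back 53.6% and 80.6% and called 5. The simulation gave every gene the same dispersion (spread beyond counting noise) and its mean over all libraries. Recovery for members with another spread was therefore not measured.

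Alternatives covered scaling, pseudocounts of 0.1 and 10, filters, fits on the compared groups, a GC correction, a replicate block, tests of the recovered reads with edgeR 4.0.16 and DESeq2 1.42.0, and each library left out in turn. Every library's values are given for SLC2A1, HK2, LDHA, HIF1A, PDK1 and MIF and, in each class, for up to 3 members with the largest called change in each direction of each comparison (mean of at least 50). In each neighbouring-pathway list, genes named are among the 2 with the largest called change in each direction. The members, lists and alternatives were chosen with earlier results of these data known, so no list here is independent evidence. Some genes that the rules select are not reported here.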

Additional observations from a re-analysis of the deposited data

Results flagged for a closer look

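Among 140 sets of 4 libraries (35 members in 4 groups), 8 held 1 library far from the other 3, judged by its gap to the nearest as a share of the group's range (Dixon's ratio). Chance gives about 1 in 20 such sets. In high MYC controls, HK1 replicate 2 was high at 876 against 788 to 799.9 normalized counts (ratio 0.865), and PFKFB3 replicate 3 was low at 807 against 885 to 891 (0.931). In high MYC with inhibitor, GAPDH replicate 3 was high at 19820.1 against 19079 to 19178 (0.866), and HIF1A replicate 4 was low at 965 against 1056 to 1061 (0.944). In medium MYC controls, PGK1 replicate 4 was high at 6639.7 against 6277 to 6322 (0.877) and KDM3A replicate 4 was high at 1566 against 1452 to 1454 (0.982). In the same group SLC16A1 replicate 3 was low at 643 against 734 to 748 (0.872) and HILPDA replicate 1 was low at 119 against 133 to 135 (0.836).

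The inhibitor response differed between MYC levels, by the limma test of the difference, for 16 of the 35 members. Of all tested genes 3.31% were called lower and 5.33% higher by this test. The difference (medium minus high MYC, log2) was negative for SLC2A1 (-0.29), HK2 (-0.36), GPI (-0.22), PFKP (-0.47), PFKFB4 (-0.56), ALDOA (-0.20), TPI1 (-0.23), PGK1 (-0.39), ENO1 (-0.24), LDHA (-0.42), SLC16A3 (-0.73), PDK1 (-0.51), BNIP3 (-0.35), EGLN3 (-0.49) and KDM3A (-0.36). It was positive for SLC2A3 (0.46).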

How the results depend on the processing

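Of 175 results for single members, 133 were called, and 119 of these stayed called under every alternative. For MYC level 33 of 35 members were called in controls and 32 with the inhibitor, where 10485 and 10664 of 13765 tested genes were called. Over all tested genes 3689 were called for the inhibitor at high MYC, 3618 at medium MYC and 1188 for the difference. The share of all genes that stayed called is not given here. Of 4850 values under alternatives, 4713 kept their direction and side of the threshold, 75 lost a call, 36 gained one and 26 changed sign without a call before or after.

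The count of other hypoxia-linked members called at high MYC was 4, and became 1 with equal library totals, quantile normalization, no filter or DESeq2, and 2 with the replicate block. It ran from 1 to 4 with 1 library left out. For the difference in response it was 4, and 7 with the GC correction, under which calls of that difference over all tested genes rose from 1188 to 1643. The cause was not tested. Sign changed under the GC correction, alike whether or not the block was added, for SLC2A1 at high MYC (0.00944), LDHB in the difference (-0.00339) and HIF1A at high MYC (-0.0607). Quantile normalization gave 0.0584 for PKM in the difference and 0.0167 for LDHB at medium MYC. With 1 library left out, the difference ran from -0.0238 to 0.0284 for LDHB, -0.0374 to 0.0393 for BNIP3L and -0.233 to 0.0152 for ANKRD37. HIF1A at high MYC ran from -0.0109 to 0.0459 and BNIP3 for MYC level with the inhibitor from -0.0303 to 0.0392. The filter at a mean of 100 gave no value for ENO2, EGLN1 and ANKRD37.

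Groups share replicate numbers, but the labels do not say that a number marks a shared culture or day. Residuals of same-numbered libraries correlated from -0.154 to 0.239 over 24 pairs (mean -0.0190), with 1 pair over 0.1 and 5 best matched by their own number, so the numbers were not taken as pairs. With the replicate block 3468 genes were called at high MYC against 3689 without it.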

Other observations

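Genes outside the 35 that the same rule named add values on the branches of glucose use. PGM1, which links glycogen to glycolysis, fell at medium MYC (log2 -0.47, SE 0.05, limma adjusted p = 5.55e-07), and its response differed between the levels (log2 -0.31, SE 0.07, limma adjusted p = 0.00887). RPIA, an enzyme of the pentose phosphate pathway, rose at high MYC (log2 0.22, SE 0.06, limma adjusted p = 0.00878) and was lower at medium MYC in controls (log2 -1.44, SE 0.06, limma adjusted p = 3.03e-15). H6PD, which does the first pentose phosphate steps inside the endoplasmic reticulum, was higher at medium MYC in controls (log2 1.59, SE 0.07, limma adjusted p = 6.31e-15).

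Some hypoxia-induced genes rose with the inhibitor. P4HA2, a relative of P4HA1, rose at high MYC (log2 0.40, SE 0.06, limma adjusted p = 5.41e-05), and MXI1, which competes with MYC for its partner MAX, rose at medium MYC (log2 0.39, SE 0.08, limma adjusted p = 0.000641). MXI1 was lower at medium MYC in controls (log2 -2.28, SE 0.08, limma adjusted p = 7.55e-17), and RORA, a nuclear receptor, was higher (log2 2.78, SE 0.09, limma adjusted p = 2.03e-17). FUT11 and CXCR4 had lower responses at medium than at high MYC (log2 -0.47, SE 0.07, limma adjusted p = 5.81e-05 for FUT11 and log2 -0.53, SE 0.06, limma adjusted p = 2.84e-06 for CXCR4). TXNIP, an arrestin-like protein that limits glucose uptake, was higher at medium MYC in controls (log2 0.58, SE 0.04, limma adjusted p = 5.42e-12) and its response was higher at medium MYC (log2 0.24, SE 0.05, limma adjusted p = 0.00522).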
